A study of Macaca fascicularis with 6 samples.

Results

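Interferon response genes are the genes that cells switch on when they sense interferon, and 39 of them were followed in liver of 6 cynomolgus macaques (Macaca fascicularis). This list and the further gene lists below were chosen by gene name from general knowledge, with earlier results of these data known. A probe set counted for a gene only where that gene was its single annotated symbol, and the probe set with the highest mean over the 6 arrays stood for the gene. In this way 38 of the 39 genes were named, among 19775 genes named on the array in all. STAT2, the partner of IRF9 in the factor that answers type I interferon, was not analysed here. Of the 38, 32 had a mean signal at or above the median of all probe sets (129 arbitrary units) and were tested, and 6 were dimmer: DDX60, OAS1, MX1, USP18, SAMD9 and IFI44L.

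The design was small: 3 animals received vehicle, and the other 3 received an LXR ligand, each hybridised to its own Affymetrix array. LXR, the liver X receptor, is a transcription factor activated by oxidised forms of cholesterol. The ligand arrays carry the letters GW in their titles. The ligand's identity, its dose, the length of treatment and the animals' ages were not given in the sources used here. The probe sets were designed against human transcripts, so a sequence difference between human and macaque can lower a signal, and signals of different genes are not compared. Bulk liver was measured, and in such samples fewer cells of a type and less RNA per cell cannot be told apart.

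As background, type I interferons act through a receptor on nearly every cell, and its kinases JAK1 and TYK2 lead to the assembly of the factor ISGF3, which holds STAT2 and IRF9. Interferon gamma acts through a separate receptor and favours genes such as IRF1, the guanylate-binding proteins and the immunoproteasome. In liver, both hepatocytes and resident macrophages (Kupffer cells) respond. In macrophages, LXR is known to restrain part of inflammatory gene expression.

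No interferon response gene passed the test between ligand and vehicle. In limma's moderated test with Benjamini-Hochberg adjustment over 27304 probe sets, 0 of the 32 tested members passed at 0.05, and 0% of all 13349 genes tested did, so the members did not stand apart from the table in that respect. The lowest adjusted p among the members was 0.722, for GBP1. At an unadjusted p under 0.05 there were 5 members (GBP1, MX2, IFI27, GBP2 and SAMHD1), all higher with the ligand and 0 lower. Of all genes tested, 6.12% reached that p, 3.70% in the higher and 2.42% in the lower direction, and of all probe sets 5.58% did. The count of 5 fell to 3 without ligand array 1 or vehicle array 2, and to 2 without ligand array 3. It was 7 without vehicle array 3. Some of these members were lower with the ligand, namely IFI35 without vehicle array 2, and IRF9, IFIH1 and OASL without vehicle array 3. In 6 members (MX2, GBP1, GBP2, IFI27, EPSTI1 and TRIM22) the lowest ligand array exceeded the highest vehicle array, against 6.21% of all genes, and in 0 tested members the order was the reverse, against 5.21%. EPSTI1 had a vehicle mean (128.3) below the signal needed for testing (129.3) and was counted only through its ligand arrays. With no filter the same 6 of 38 members met the condition, against 5.71% of all genes, and the dim USP18 had the reverse order. Without vehicle array 3 there were 10 tested members with all ligand arrays above the vehicle arrays, where 12.01% of all genes met the same condition.

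The log2 difference lay within 0.5 of 0 in 21 of the 32 members and in 10476 of the 13349 genes tested, so less often in the members. It was above 0.5 in 9 members and 1599 of all genes, and below -0.5 in 2 members and 1274 of all genes. The log2 difference, ligand minus vehicle on log2(signal + 16), was above 0 in 20 of the 32 and below 0 in 12, with a median of 0.091, beside 50.3% above 0 and a median of 0.0027 over all genes tested. With the 6 dim members included, 25 of 38 were above 0 and the median was 0.16. The median was 0.26 without ligand array 3, 0.19 without vehicle array 1, 0.15 without ligand array 1 and 0.14 without vehicle array 2. The members ran from -1.31 for IRF7 to 1.33 for IFIT5, and the 2 genes at these ends were also among the most variable within groups. For 9 members the 95% confidence interval lay wholly within a 2-fold change in either direction: IRF9, IRF1, IFIT2, IFIT3, ISG15, BST2, TRIM22, TAP1 and PSMB9. These are 28.1% of the members, where 52.5% of all genes tested had an interval within those bounds. Leaving out 1 array turned the sign of the log2 difference in 15 of the 32 members, and turned it or moved it by over 1.5 times in 27, the exceptions being EPSTI1, GBP1, IFI27, MX2 and TRIM22. Among these, EPSTI1 was in the test only through its ligand arrays.

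**Figure D1:**
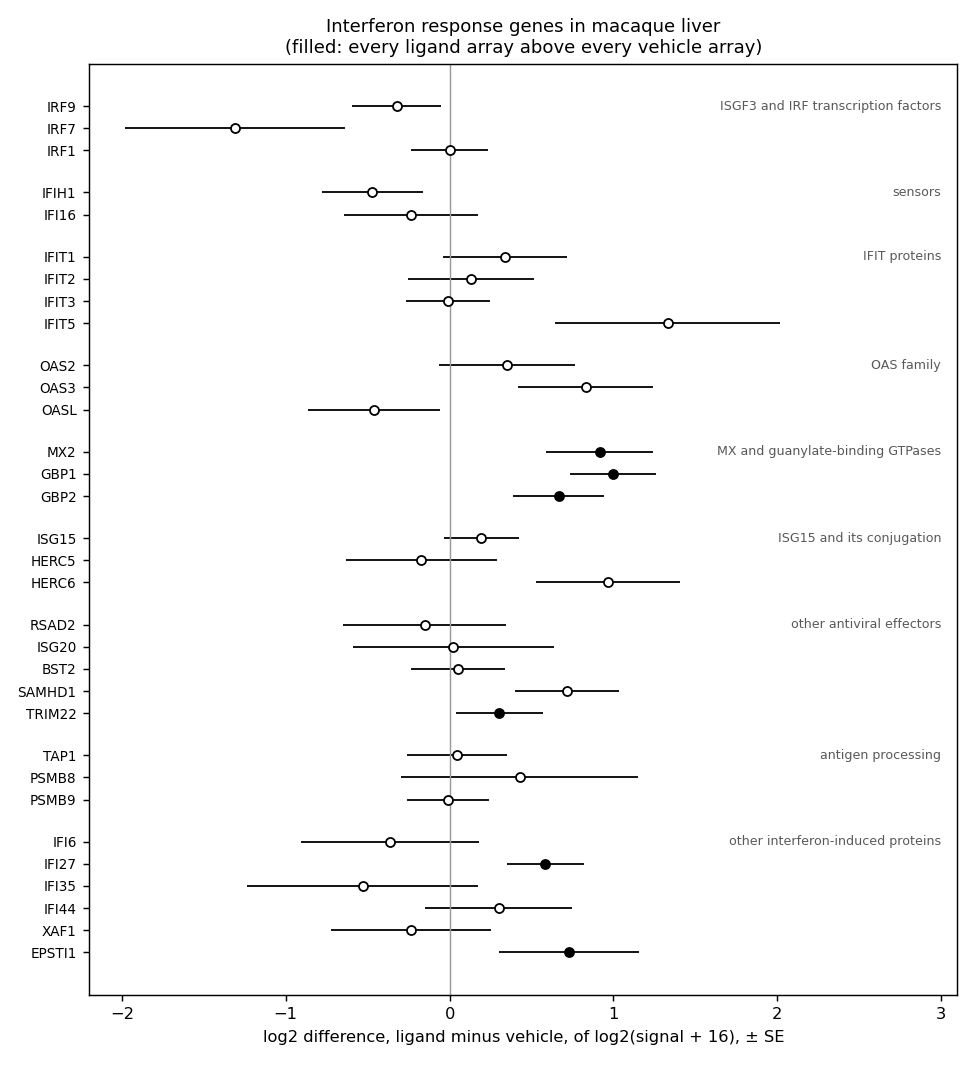
Log2 difference between 3 ligand and 3 vehicle arrays for the 32 tested interferon response genes, ordered by role, with bars of 1 standard error from limma; filled points mark the 6 genes whose groups did not overlap. The 3 tested GTPases sit together between 0.67 and 0.998, both tested sensors of the member list (IFIH1 and IFI16) lie below 0, and every other role holds points on both sides of 0.

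The GTPases were the role group whose tested members all differed by more than their errors. GBP1, an interferon-induced GTPase that coats bacteria and the vacuoles around them, had signals of 327, 375 and 388 in the vehicle animals and 722, 616 and 912 in the ligand animals, each in the order of array number, as in the sentences that follow. The groups were clearly apart, with the lowest ligand array well above the highest vehicle array. The vehicle mean was 364 ± 32.1 and the ligand mean 749.7 ± 149.9 (SD, n = 3 each), and the log2 difference was 0.998 ± 0.26 (SE). GBP1 had an adjusted p of 0.722 in limma, and its unadjusted p was under 0.05 in all 16 alternative settings run.

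GBP1 has 4 probe sets with that symbol alone. The second, also bright enough to be tested, read 158, 87.2 and 283 with vehicle and 337, 258 and 705 with the ligand, a log2 difference of 1.23 ± 0.49 (SE), and here the groups overlapped, since ligand array 2 lay below vehicle array 3. The dim ones had log2 differences of 0.88 and 0.03. The name of the brightest carries the suffix (_x_at) that Affymetrix gives to probe sets with probes that may match other transcripts, and the guanylate-binding proteins are a family of close paralogs, so its signal may hold more than GBP1.

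GBP2, a second guanylate-binding protein, had signals of 812, 426 and 691 with vehicle and 956, 1026 and 1005 with the ligand. Its ligand arrays lay close together and above all vehicle arrays, of which array 2 was the low one. Its log2 difference was 0.67 ± 0.28 (SE), at limma adjusted p = 0.874, and it was 0.40 without vehicle array 2. The other GBP2 probe set was dim, with a log2 difference of -0.56. In the macaque gene annotation GBP2 and GBP1 are next to each other. The paralogs GBP3, GBP4 and GBP5, named after their values were seen, were too dim to be tested, and their log2 differences were -0.45, -1.64 and -0.55.

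MX2, a GTPase that blocks nuclear entry of viruses, had signals of 179, 174 and 156 with vehicle and 344, 378 and 287 with the ligand. Vehicle arrays were nearly level, and all ligand arrays were higher. The log2 difference was 0.92 ± 0.33 (SE), at limma adjusted p = 0.829. MX1, its neighbour in the macaque annotation and the classic marker of type I interferon, was dim, with 71.3, 48.2 and 25.3 on vehicle arrays and 104, 159 and 33.1 on ligand arrays. Its groups overlapped, as ligand array 3 read below vehicle arrays 1 and 2.

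**Figure D2:**
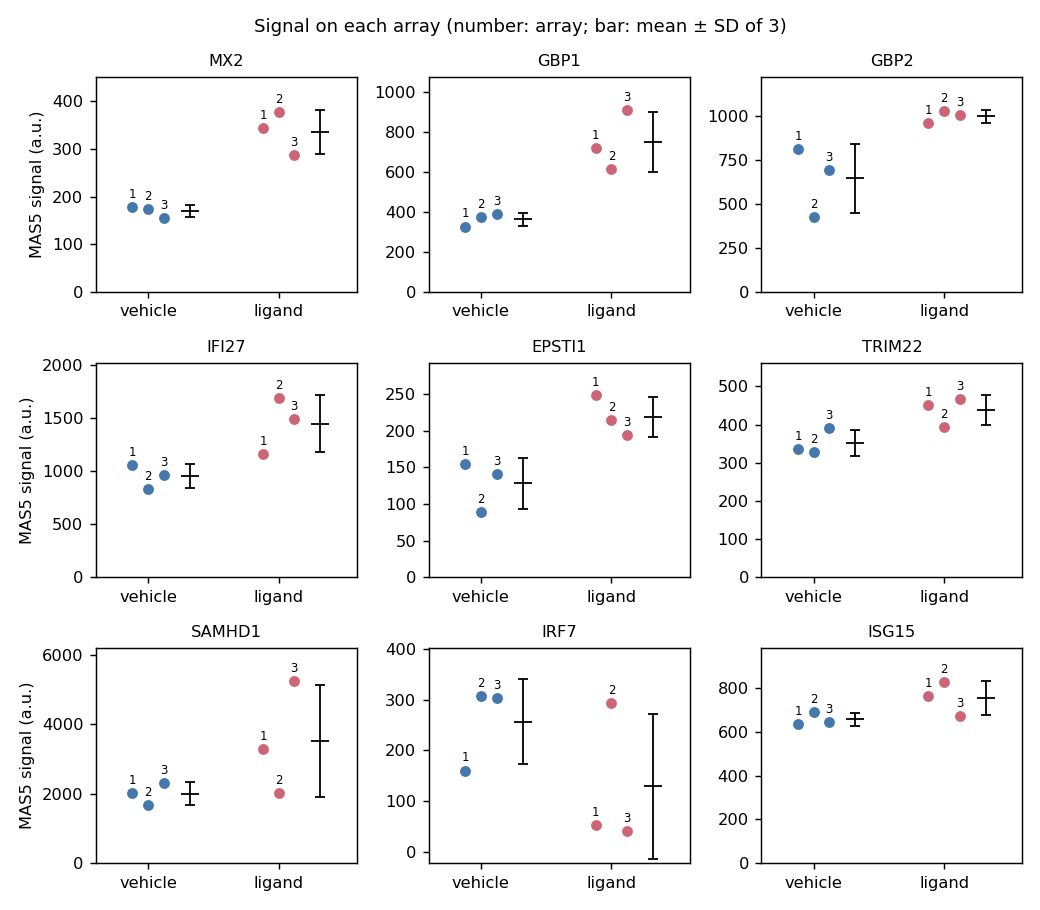
MAS5 signal in arbitrary units of 9 interferon response genes on each of 3 vehicle and 3 ligand arrays, with the array number above each point and the mean ± SD of 3 arrays beside them. In MX2, GBP1, GBP2, IFI27, EPSTI1 and TRIM22 the ligand points all lie above the vehicle points, in SAMHD1 and ISG15 the groups overlap, and in IRF7 ligand arrays 1 and 3 lie low while ligand array 2 lies with the vehicle arrays (the SD bar of the ligand mean reaches below 0).

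The summed signal of macrophage markers was higher on the same 3 arrays, though no single marker passed the test. Of 12 listed macrophage and Kupffer cell markers 11 were named and 10 tested. All 10 had positive log2 differences, against 50.3% of all genes, with a median of 0.77 and a lowest limma adjusted p of 0.387. In 5 of them (CD163, MARCO, C1QA, C1QB and C1QC) every ligand array was above every vehicle array, which is 50% against 6.21% of all genes. In CD14, VSIG4, CD5L, CSF1R and AIF1 the groups overlapped, and the dim TIMD4 had a log2 difference of -0.55. The summed signal of the 11 ran from 11847 to 16329 on the vehicle arrays and from 20545 to 26236 on the ligand arrays, and 0 of the 11 markers were at 0. A sum is weighted to the brightest probe sets, here CD14, with means of 6781 with vehicle and 9072 with the ligand. The 3 tested GTPases, as a mean log2 difference from the vehicle mean, stood at 0.84, 0.85 and 0.89 on ligand arrays 1 to 3. The part of macrophage content in the signals of GBP1, GBP2, MX2 and the other members was not tested. Summed signals of the groups overlapped for T and NK cells (1318 to 2378 with vehicle, 1412 to 2478 with the ligand), B and plasma cells (1238 to 1403 and 1106 to 1655), neutrophils (1952 to 3160 and 1312 to 3135) and hepatocytes (763441 to 894616 and 805537 to 871447). Within these lists, KLRD1 of the T and NK markers had every ligand array above every vehicle array, and MZB1 of the B and plasma markers had every one below. The endothelial sums also overlapped (11102 to 13429 and 11590 to 14958), but only through VWF, the clotting factor stored in endothelium. VWF read 4667, 2129 and 1340 with vehicle and 157, 156 and 377 with the ligand, a log2 difference of -3.39 ± 0.47 (SE), which was the lowest of all genes tested and had the lowest adjusted p among them (0.319 in limma). The other 9 endothelial markers all had positive log2 differences, and their sums did not overlap, with 8762 to 10378 on the vehicle arrays and 11434 to 14581 on the ligand arrays. For plasmacytoid dendritic cells, the main interferon producers of blood, the sums were 2791 to 5475 and 4921 to 7629, carried by TCF4, and the 4 other markers were too dim to be tested. Of these, LILRA4 read 30.0, 36.7 and 65.6 with vehicle and 65.8, 139 and 272 with the ligand, and CLEC4C had a log2 difference of -0.78. The part of endothelial and plasmacytoid dendritic cells in the results was not tested either.

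The transcription factors that carry the response did not follow the GTPases. IRF7, which amplifies type I interferon production, had signals of 160, 307 and 303 with vehicle and 52.9, 293 and 39.9 with the ligand. Ligand arrays 1 and 3 were below every vehicle array, while ligand array 2 was among the vehicle values. The ligand mean of IRF7, 128.7 ± 142.7 (SD, n = 3), lay below the 129.3 units needed for testing, which the gene reached through its vehicle arrays. The log2 difference was -1.31 ± 0.67 (SE), at limma adjusted p = 0.88, and it became -2.08 when ligand array 2 was left out and -0.85 when ligand array 3 was. IRF9, the DNA-binding subunit of ISGF3, read 2608, 2653 and 1449 with vehicle and 1854, 1917 and 1438 with the ligand, a log2 difference of -0.32 ± 0.27 (SE). IRF1, an early target of interferon gamma, read 890, 873 and 1180 with vehicle and 907, 913 and 1111 with the ligand, a log2 difference of 0.0018 ± 0.23 (SE) and a 95% interval from -0.52 to 0.52. The groups overlapped almost entirely for IRF1, and its dim second probe set had a log2 difference of 0.56.

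Both members tested in the role of sensors of foreign nucleic acid had lower mean signals with the ligand, with overlapping groups. This did not hold for such sensors in general. Of 13 tested genes of nucleic acid sensing outside the member list, 6 had log2 differences above 0, CGAS and AIM2 among them, and 7 below. IFIH1, the cytoplasmic receptor for long double-stranded RNA, read 906, 624 and 425 with vehicle and 436, 481 and 420 with the ligand. Its 3 ligand arrays were nearly level and vehicle array 3 lay among them, and the log2 difference of -0.47 ± 0.31 (SE) was -0.21 without vehicle array 1 and -0.74 without vehicle array 3. IFI16, which binds DNA, ran from 507 to 1216 with vehicle and from 344 to 824 with the ligand, a log2 difference of -0.24 ± 0.41 (SE). This IFI16 probe set carries the _x_at suffix described for GBP1, so its signal may hold more than IFI16. Dim probe sets had log2 differences of 0.28 and -0.41 for IFI16 and of -0.85 and -0.09 for IFIH1. DDX60, a helicase that aids RNA sensing, was dim, with 72.2 to 141 on the vehicle arrays and 88.5 to 145 on the ligand arrays.

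The IFIT genes encode proteins that bind foreign RNA lacking host cap marks and block its translation. IFIT1 read 743, 556 and 244 with vehicle and 663, 522 and 607 with the ligand. Only vehicle array 3 was low, and the log2 difference of 0.34 ± 0.38 (SE) turned to -0.11 without that array and was 0.66 without vehicle array 1. IFIT2 and IFIT3 had log2 differences of 0.13 ± 0.39 and -0.01 ± 0.26 (SE), with IFIT3 at 520, 559 and 539 on the ligand arrays, which was the smallest SD on the log2 scale (0.050) of any tested member in either group. Their dim second probe sets had -0.08 and 0.32, each of the opposite sign. IFIT5 read 863, 94.9 and 158 with vehicle and 787, 330 and 955 with the ligand. Vehicle array 1 lay among the ligand arrays and the other vehicle arrays were below them, which gave an estimate of 1.33 ± 0.68 on the log2 scale (SE, limma adjusted p = 0.88), which became 0.72 when vehicle array 2 was left out and 2.22 when vehicle array 1 was. A dimmer IFIT5 probe set had a log2 difference of 0.03. IFIT2, IFIT3 and IFIT1 are consecutive genes in the macaque annotation, and their differences were all within their errors.

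The oligoadenylate synthetases detect double-stranded RNA and make the messenger that activates RNase L. OAS3, the largest of them, read 216, 108 and 314 with vehicle and 469, 299 and 335 with the ligand, overlapping at vehicle array 3. Its log2 difference was 0.83 ± 0.41 (SE), at limma adjusted p = 0.88, and it was 0.45 without vehicle array 2, while its dim second probe set had -0.19. OAS2 read 116, 147 and 247 with vehicle and 198, 216 and 220 with the ligand, a log2 difference of 0.35 ± 0.42 (SE), and its dim probe sets had 0.55 and 0.31. OASL, a family member without synthetase activity that enhances RNA sensing, read 1426, 840 and 481 with vehicle and 412, 861 and 613 with the ligand, a log2 difference of -0.46 ± 0.40 (SE), and its second tested probe set had -0.30. OAS1 was dim, and its probe sets had log2 differences of 1.12 and -0.39. OAS1, OAS3 and OAS2 are consecutive genes in the macaque annotation, and the sign of the log2 difference differed between probe sets within OAS1 and OAS3.

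ISG15, a ubiquitin-like protein that is attached to other proteins during the response, was among the steadiest members. It read 635, 692 and 644 with vehicle and 765, 828 and 674 with the ligand, a log2 difference of 0.19 ± 0.23 (SE) and a 95% interval from -0.32 to 0.70. Only ligand array 3 lay within the vehicle range. HERC5, the ligase that attaches ISG15, read 489, 186 and 247 with vehicle and 166, 438 and 211 with the ligand, a log2 difference of -0.17 ± 0.46 (SE). HERC6, its neighbour in the genome and a related ligase, read 490, 137 and 175 with vehicle and 546, 485 and 377 with the ligand. Vehicle array 1 was level with the ligand arrays and the other vehicle arrays were lower, and the log2 difference was 0.97 ± 0.44 (SE), at limma adjusted p = 0.88, with 0.63 without vehicle array 2 and 1.49 without vehicle array 1. The dim second HERC6 probe set had 0.80. USP18, the protease that removes ISG15 and also blocks the type I receptor, was dim, with 50.05, 156 and 41.7 on vehicle arrays and 29.3, 17.95 and 37.5 on ligand arrays. All ligand values of USP18 were below all its vehicle values, with a narrow gap on array 3 of both groups, and at such signals a transcript's presence was not established here.

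Among the other antiviral effectors, SAMHD1, which depletes the nucleotides that retroviruses need, read 2023, 1671 and 2312 with vehicle and 3275, 2027 and 5250 with the ligand. Ligand array 2 lay within the vehicle range and ligand array 3 was the highest. The log2 difference was 0.71 ± 0.32 (SE), at limma adjusted p = 0.88, and 0.37 without ligand array 3. Both further SAMHD1 probe sets in the test lay on the same side of 0, at 0.74 ± 0.35 and 0.51 ± 0.43 (SE), while its dim ones gave 0.17, 0.82 and -0.33. The brightest probe set and the one at 0.74 carry the _x_at suffix described for GBP1, so their signals may hold more than SAMHD1. TRIM22, a ubiquitin ligase with antiviral activity, read 336, 328 and 391 with vehicle and 451, 393 and 468 with the ligand. The groups did not overlap, by a margin of 391 against 393, and the log2 difference was 0.30 ± 0.26 (SE, limma adjusted p = 0.931).

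BST2, the tether that holds budding virus at the cell surface, had a log2 difference of 0.05 ± 0.29 (SE), with 2165, 1365 and 1372 on vehicle arrays and 1862, 2101 and 1151 on ligand arrays. RSAD2, known as viperin, read 283, 327 and 99.4 with vehicle and 131, 265 and 193 with the ligand, a log2 difference of -0.15 ± 0.50 (SE), beside -0.29 in its second tested probe set. Both RSAD2 probe sets had overlapping groups. ISG20, an exonuclease of RNA, had probe sets that disagreed in size: the brightest gave 0.02 ± 0.61 (SE), with vehicle values from 73.0 to 600, and the second gave 1.34 ± 0.83 (SE), with ligand values of 41.9, 497 and 386. SAMD9, a dim member, ran from 28.3 to 153 with vehicle and from 120 to 177 with the ligand.

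The antigen-processing members showed no difference beyond their spread. TAP1, one subunit of the peptide transporter that loads MHC class I, read 738, 490 and 895 with vehicle and 576, 956 and 650 with the ligand, a log2 difference of 0.05 ± 0.30 (SE). PSMB9, a catalytic subunit of the immunoproteasome, read 804, 1051 and 1214 with vehicle and 847, 1028 and 1156 with the ligand, a log2 difference of -0.0094 ± 0.25 (SE). PSMB8, another such subunit, had a vehicle array 2 far below the rest, at 53.2 beside 489 and 723, and ligand values from 291 to 456. Its log2 difference was 0.43 ± 0.73 (SE), with -0.62 without vehicle array 2 and 1.09 without vehicle array 3. TAP1 and PSMB9 are neighbours in the macaque annotation.

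Of the remaining interferon-induced members, IFI27, a mitochondrial protein strongly induced by type I interferon in many tissues, read 1057, 834 and 958 with vehicle and 1156, 1686 and 1486 with the ligand. All ligand arrays were above all vehicle arrays, and the log2 difference was 0.58 ± 0.23 (SE), at limma adjusted p = 0.873. EPSTI1, an interferon-induced gene known from epithelial and stromal cells, read 155, 88.6 and 141 with vehicle and 248, 215 and 194 with the ligand. Its groups did not overlap either, with a log2 difference of 0.73 ± 0.43 (SE), but its dim second probe set had -0.58. The EPSTI1 vehicle mean, 128.3 ± 35.1 (SD, n = 3), lay below the 129.3 units needed for testing, which the gene reached through its ligand arrays.

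IFI6, an antiviral protein of the endoplasmic reticulum, read 486, 680 and 370 with vehicle and 357, 974 and 155 with the ligand, so that the ligand group held both its highest and its lowest value. IFI44 had its highest value on ligand array 2 as well, with 1343, 801 and 482 with vehicle and 1061, 1696 and 543 with the ligand. Their log2 differences were -0.36 ± 0.54 and 0.30 ± 0.45 (SE), and the dim second IFI44 probe set had 0.18. IFI35 had -0.53 ± 0.70 (SE), with vehicle array 2 at 49.3 beside 333 and 295. Its ligand mean was 125.4 ± 55.4 (SD, n = 3), below the 129.3 units needed for testing. XAF1, which promotes cell death, had -0.24 ± 0.49 (SE), and its other tested probe sets had -0.47 and -0.25. IFI44L, next to IFI44 in the macaque annotation, was dim, with 34.4 to 143 and 60.7 to 128.

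**Figure D3:**
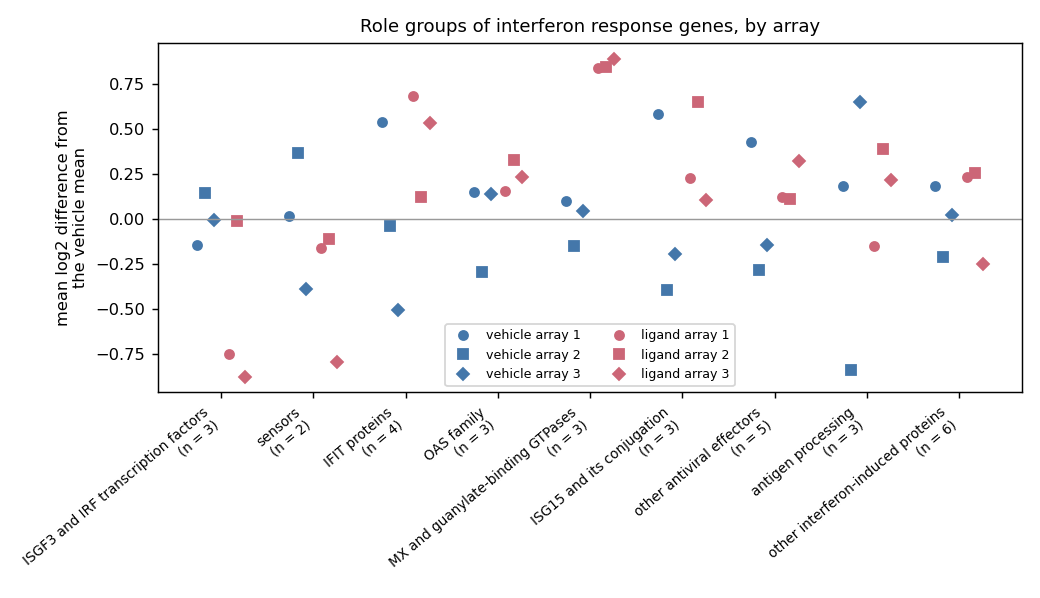
Mean log2 difference from the vehicle mean for each role group of tested interferon response genes on each of the 6 arrays. The GTPases stand at 0.84 to 0.89 on the ligand arrays, well above the vehicle arrays, and the OAS family is apart only by 0.15 against 0.16; in the other roles the groups overlap, and ligand arrays 1 and 3 stand low for the transcription factors through IRF7.

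Vehicle arrays differed from each other in these genes more than in the typical gene, while ligand arrays did so about as much as in the typical gene. With 1 array per animal, differences between animals and between arrays cannot be told apart. The median SD on the log2 scale among vehicle animals was 0.50 over the members and 0.33 over all genes tested, and among ligand animals it was 0.33 over both. The pooled within-group SD on the log2 scale had a median of 0.52 over the 32 members and 0.37 over all genes tested. Among the vehicle animals, the highest signal was over 2 times the lowest in 16 of 32 members, against 28.4% of all genes, and among the ligand animals in 11 of 32, against 28.2%. The vehicle group was the more variable in 21 of the 32, against 49.5% of all genes. IFIT5, ISG20, IFI35, PSMB8, HERC6 and IFIT1 showed this most, and IRF7 and IFI6 showed the reverse. No test was made of these spreads.

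**Figure D4:**
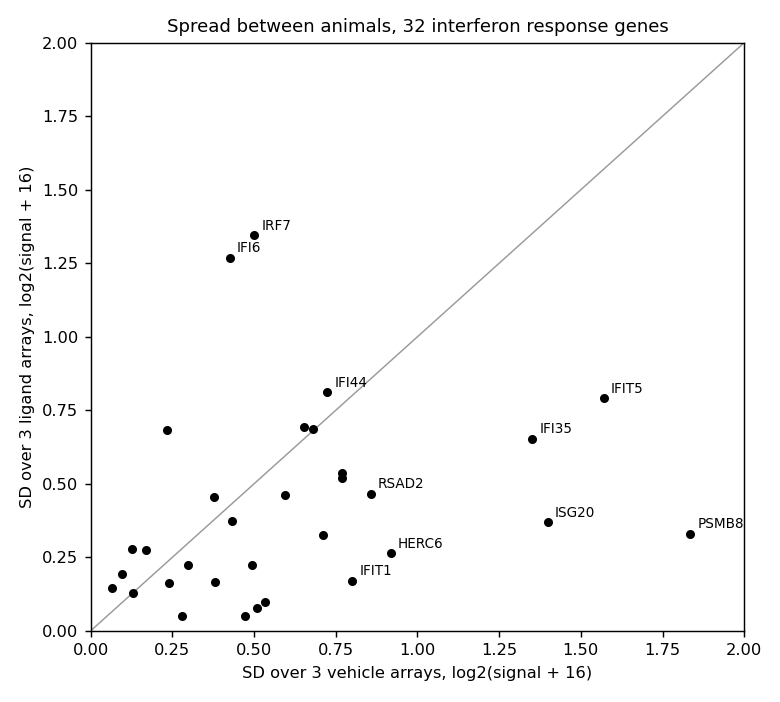
Standard deviation of log2(signal + 16) over 3 ligand arrays against that over 3 vehicle arrays, 1 point for each of 32 interferon response genes, with the line of equal spread. Points for 21 genes lie below the line, PSMB8 and IFIT5 farthest to the right, and IRF7 and IFI6 lie far above it.

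No animal was high or low throughout. Within the vehicle group, array 1 held the highest value in 14 members and array 2 the lowest in 15, where these arrays were highest in 28.7% and lowest in 33.6% of all genes tested. Within the ligand group, array 2 held the highest value in 16 members, where it was highest in 31.1% of all genes. The mean of the members, each centred over the 6 arrays, came to 0.16, -0.30 and -0.13 in the vehicle animals and to 0.083, 0.19 and -0.013 in the ligand animals, in array order, and the groups overlap at vehicle array 1. The median of the centred members came to 0.061, -0.24 and -0.16 with vehicle and to 0.16, 0.23 and 0.093 with the ligand, and in this measure the groups did not overlap. Vehicle array 1 was the highest vehicle array for IFIH1, IFIT1, IFIT5, OASL, HERC5, HERC6 and IFI44, and vehicle array 3 was the lowest for the IFIT1, OASL, RSAD2 and IFI44 signals.

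Over the whole table, ligand array 1 stood apart on the first principal component, which held 23.0% of the variance, at -89.8 with the other arrays at 0.63 to 36.8. The ratio of 3' to 5' control signals, a measure of RNA integrity, was 1.99 to 3.25 with vehicle and 2.25 to 4.15 with the ligand for GAPDH, and 4.45 to 8.34 and 6.16 to 16.04 for ACTB, with ligand array 3 the highest for both. Its part in SAMHD1, IRF7 and the other members that were extreme on that array was not tested.

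The rest of the interferon pathway was described from a list of 106 further genes, of which 98 were named and 79 tested. In limma, 0 of the 79 passed with adjusted p, and 42 were above 0 and 37 below, with a median log2 difference of 0.045. An unadjusted p under 0.05 was reached by 6, all higher with the ligand, which is 7.59% of the 79 and near the 6.12% of all genes. Of the ligands, 9 of 10 were named, and all but IFNL1 were dim. IFNB1 read 14.1, 19.2 and 82.9 with vehicle and 8.89, 42.2 and 15.4 with the ligand, and IFNG 98.7, 155 and 162 with vehicle and 82.3, 156 and 41.7 with the ligand. IFNA1, IFNA2, IFNE, IFNK, IFNW1 and IFNL2 were also below the minimum signal, with overlapping groups in each, and IFNL1, the tested one, had a log2 difference of 0.06 ± 0.46 (SE).

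Receptors and kinases gave no call. For the type I receptor, IFNAR1 had a log2 difference of -0.09 ± 0.33 and IFNAR2 0.35 ± 0.83 (SE), the latter with vehicle values from 39.5 to 802. For the interferon gamma receptor, IFNGR1 read 168, 170 and 419 with vehicle and 485, 353 and 328 with the ligand, a log2 difference of 0.70 ± 0.40 (SE), while IFNGR2 had -0.10 ± 0.19 (SE). For the lambda receptor, IFNLR1 had -0.51 ± 0.45 (SE), and IL10RB, its partner chain, was dim, with 17.8 to 107 and 107 to 168. JAK1, the kinase shared by these receptors, was the 1 further pathway gene with all ligand arrays below the vehicle arrays, at -0.14 ± 0.17 (SE). That is 1.27% of the 79, against 5.21% of all genes, and 7 genes (8.86%, against 6.21% of all genes) had them all above. TYK2, its partner at the type I receptor, had -0.37 ± 0.25 (SE); both kinases were named after their values were seen.

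The 6 further pathway genes with the smallest p were CGAS, AIM2, PLSCR1, TAPBP, PARP14 and SHISA5. CGAS, the DNA sensor that makes the messenger for STING, read 146, 265 and 106 with vehicle and 495, 419 and 535 with the ligand. The groups were apart, with a log2 difference of 1.49 ± 0.37 (SE, adjusted p = 0.689 in limma). The CGAS probe set carries the _x_at suffix described for GBP1, so its signal may hold more than CGAS. AIM2, a DNA sensor that builds an inflammasome, read 622, 471 and 489 with vehicle and 818, 1334 and 1338 with the ligand, a log2 difference of 1.09 ± 0.27 (SE; adjusted p = 0.689 in limma). All ligand arrays were above all vehicle arrays for AIM2 as well.

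PLSCR1, a lipid scramblase with antiviral activity, read 1794, 2215 and 983 with vehicle and 2809, 3101 and 3479 with the ligand, a log2 difference of 0.98 ± 0.29 (SE). Its groups did not overlap, at limma adjusted p = 0.829. TAPBP, which bridges MHC class I to the peptide transporter, had 0.65 ± 0.26 (SE), PARP14, an ADP-ribosyltransferase, 0.95 ± 0.39 (SE), and SHISA5, a membrane protein of the endoplasmic reticulum, 0.47 ± 0.20 (SE). The inhibitors of the pathway were 3 above 0 and 9 below of 12 tested, with a median of -0.11, and the 39 tested induced genes outside the member list were 26 above 0 and 13 below, with a median of 0.17.

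**Figure D5:**
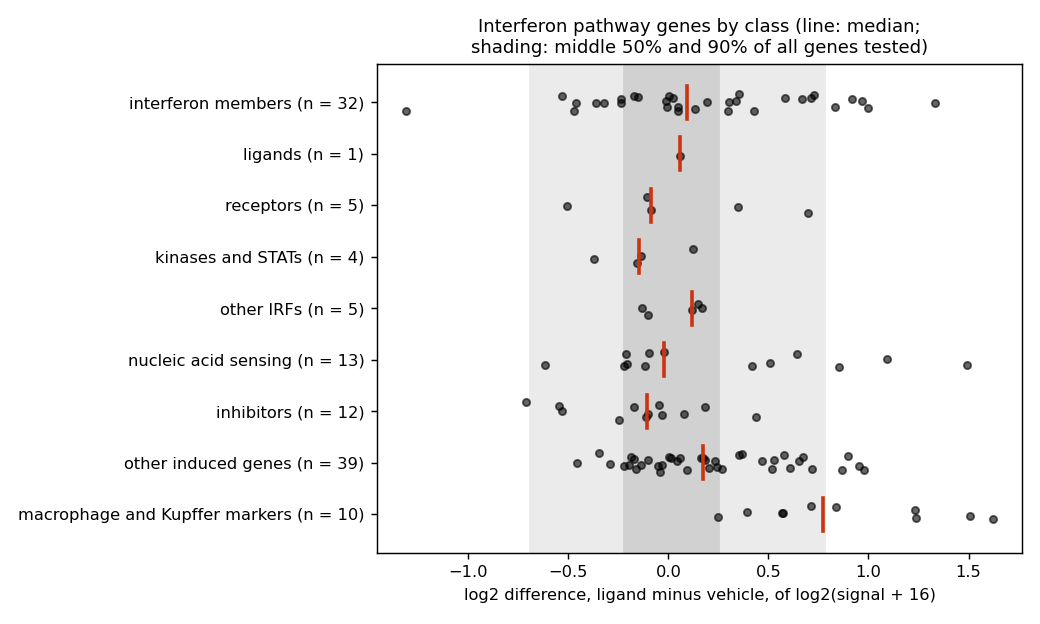
Log2 difference, ligand minus vehicle, of the 32 interferon response genes, of 79 further pathway genes by class and of 10 macrophage and Kupffer cell markers, 1 point per gene with the median as a line; shading spans the middle 50% and 90% of all genes tested. The medians of the interferon response genes (0.091), receptors, kinases, sensors and inhibitors lie within the inner band, and that of the macrophage markers (0.77) lies outside it.

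Among 13238 tested genes outside the member and pathway lists, those whose log2 values followed the mean of the members most closely over the 6 arrays were XPA, LLPH, KLK15, UBE2K and HAUS1, with Pearson r from 0.980 to 0.993. They are the top of a ranking over many genes and few arrays, and are given as a description only.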

How the data were processed

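Liver RNA of 6 macaques was hybridised to Affymetrix arrays, 1 animal on each. The deposited values are MAS5 signal intensities, per the submitters' processing notes, linear by their range, with version, scaling target and detection calls not given in the sources used here. Values were used as log2(signal + 16) with the deposited scaling. Without the 62 controls, 27304 of 54675 probe sets had a mean signal reaching the median of the probe set means (129) and entered the test in limma 3.58.1 under R 4.3.3 (lmFit and eBayes with an intensity trend, two-sided, 3 against 3 arrays, no covariates), with Benjamini-Hochberg adjustment and a threshold of 0.05. The test was tried on simulated data. Fold changes understate those of dim probe sets. The annotation gave 41097 probe sets 1 symbol, 1801 several and 11777 none, and none was named from several. Of the 39 member symbols, 38 occur in the macaque annotation of assembly T2T-MFA8v1.1, used for names and neighbours only. All members are named, with values on each array or ranges, and of other pathway genes the ligands, receptors and the 6 smallest p, besides the few said to be named after their values were seen. The members and lists were chosen with earlier results of these data known. Alternatives covered the pseudocount, scaling, filter, variance model, replicate block, leaving out each array, and averaging probe sets per gene. Figures used Python 3.11.15 and matplotlib 3.10.9.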

Additional observations from a re-analysis of the deposited data

How the results depend on the processing

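With 3 animals in each group, their number limits every value, and detection calls were not used, so dim probe sets such as USP18 or MX1 have no firm level. Under all 16 alternatives, 0 members and 0 further pathway genes passed in limma with adjusted p. Over all probe sets 0 passed in limma, with 1523 at an unadjusted p under 0.05, and leaving out 1 array gave 0 to 1. No member whose difference exceeded its SE changed sign. The members' median log2 difference ran from 0.087 to 0.26 when 1 array was left out, and was 0.048 when the filter was raised to the 75th percentile, at which 18 members were tested and 11 of them were higher. The counts in the next sentences, and the endothelial sum without VWF, were added after the data were seen. Members at an unadjusted limma p under 0.05 (5) numbered 3 with the filter at the 75th percentile, 3 with median centring and 3 without the intensity trend. Of all genes, 6.56%, 5.90% and 5.29% did so in these settings. When 1 array was left out, 2 to 7 members and 5.60% to 6.42% of all genes did. Some of these members were lower with the ligand: IRF7 and IFI6 without ligand array 2, IFI35 without vehicle array 2, and IRF9, IFIH1 and OASL without vehicle array 3. Members whose ligand arrays all exceeded their vehicle arrays (6) numbered 3 with that filter, from fewer genes tested, and 6 to 10 when 1 array was left out, with 10 without vehicle array 3, where 12.01% of all genes did so. With the replicate number as a block in limma, 0 members passed, 7 had an unadjusted p under 0.05 (7.07% of all genes did) and the median was 0.091. Deviations of same-numbered arrays correlated across probe sets at 0.040, -0.031 and 0.070, and 4 of 6 arrays correlated best with their own number. The labels state no batch or pairing. With 3 arrays per group, these values cannot decide whether same-numbered arrays share one. The cause of the shifts between settings was not tested.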
